A study of Mus musculus with 4 samples.

Results

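The cell type described here, Glutamatergic_L2_3_IT_ENTl in the tables and L2_3_IT_ENTl below, is a set of glutamatergic neurons named for layers 2 and 3 of the lateral entorhinal cortex. Its spots were found in the cell type tables that the authors deposited for 4 sections of mouse brain. A spot was counted as holding the type when its deposited share of that type was above 0. By that rule, 460 of 14809 spots held it, with 127 in the ketamine-treated susceptible section, 145 in the susceptible section, 63 in the resilient section and 125 in the control section.

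The lateral entorhinal cortex is a main gateway between the neocortex and the hippocampus, and its superficial layers also receive direct input from the olfactory system. Neurons of its layer 2 send axons through the perforant path to the dentate gyrus, and layer 3 neurons project to CA1 and the subiculum. The letters IT stand for intratelencephalic, a class of neurons whose axons stay within the forebrain hemispheres. The region is known for its part in memory of objects and odours.

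All 4 sections came from brains of wild type C57 mice, cut sagittally and laid on spatially barcoded slides, with 1 section and no replicate in each group. In chronic social defeat stress, mice are repeatedly defeated by an aggressor and then sorted by a social interaction test into susceptible mice, which avoid others, and resilient mice, which do not. The ketamine-treated susceptible mouse received ketamine intraperitoneally at 10 mg/kg and its brain was taken 7 days later, while the susceptible, resilient and control mice received saline. The labels used here do not say whether the control was housed with an aggressor, and give no age or sex. The sections held 3477, 3443, 4156 and 3733 spots, in the order ketamine-treated, susceptible, resilient and control. A spot is a small area that can hold several cells, and its shares of 67 types, 47 of them glutamatergic, are the authors' estimates. Each section is 1 mouse, so no test across mice was possible. The 95% intervals below are exact Clopper-Pearson intervals for shares and log-ratio intervals for ratios, and both reflect the number of spots counted alone. Nearby spots resemble each other, so the true uncertainty is larger. The files hold no gene counts, so the label could not be checked against marker genes and the depth is unknown.

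L2_3_IT_ENTl was held by a small part of the spots in every section. It was held by 3.65% of ketamine-treated spots (3.05 to 4.33), 4.21% of susceptible spots (3.57 to 4.94), 1.52% of resilient spots (1.17 to 1.94) and 3.35% of control spots (2.79 to 3.98). The resilient section stood apart, its interval lying below those of the other sections, whose intervals overlapped each other. The type led a spot, that is, had the highest share in it, in 2.65% of ketamine-treated spots (2.14 to 3.24), 3.11% of susceptible spots (2.55 to 3.74), 0.866% of resilient spots (0.607 to 1.20) and 2.46% of control spots (1.99 to 3.01). The order of the sections was the same by this measure.

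**Figure D1:**
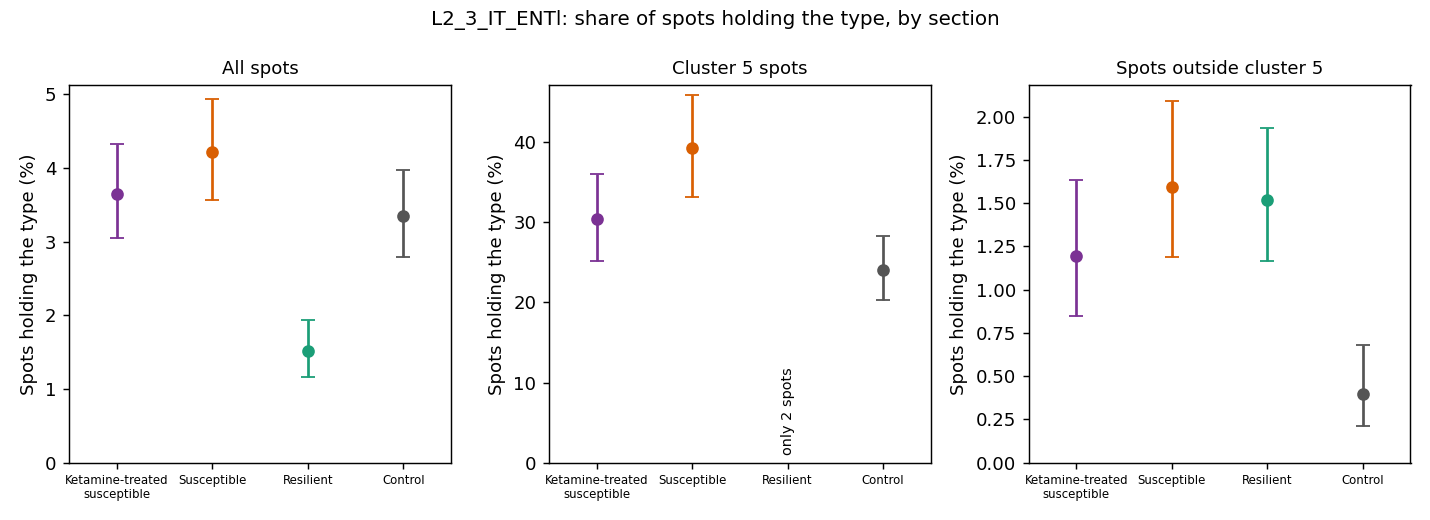
The share of spots holding L2_3_IT_ENTl, in percent, in each section, over all spots (left), cluster 5 spots (middle) and spots outside cluster 5 (right); points are the shares and bars exact 95% intervals for counting error. The resilient section is lowest over all spots at 1.52%, while outside cluster 5 it lies at 1.52% and the control at 0.398%.

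Most of these spots belonged to cluster 5, 1 of the 17 clusters that the authors assigned to the spots. In 3 sections, cluster 5 held most spots of the type: 89 of 127 in the ketamine-treated section (70.1%, 61.3 to 77.9), 94 of 145 in the susceptible section (64.8%, 56.5 to 72.6) and 112 of 125 in the control section (89.6%, 82.9 to 94.3). The control interval lay above the other 2. Cluster 5 itself covered 293 ketamine-treated, 239 susceptible and 465 control spots. In the resilient section it covered 2 spots, neither of which held the type, so the low resilient value went together with the near absence of this cluster. The group, the mouse and the section cannot be told apart here. Cluster numbers and type shares were both made from the same spots, so their match is a description and no independent check.

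Within cluster 5, the type was held by a larger part of susceptible than of control spots. It was held by 30.4% of ketamine-treated cluster 5 spots (25.2 to 36.0), 39.3% of susceptible cluster 5 spots (33.1 to 45.8) and 24.1% of control cluster 5 spots (20.3 to 28.2). The control section thus had the most cluster 5 spots and the lowest share of them holding the type. Its interval did not overlap that of the susceptible section, and the ketamine-treated interval overlapped both. The mean share over all spots of cluster 5 was 21.5% in the ketamine-treated, 28.0% in the susceptible and 18.6% in the control section.

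Outside cluster 5, the control section had the lowest value. The type was held by 38 of 3184 ketamine-treated spots (1.19%, 0.846 to 1.63), 51 of 3204 susceptible spots (1.59%, 1.19 to 2.09), 63 of 4154 resilient spots (1.52%, 1.17 to 1.94) and 13 of 3268 control spots (0.398%, 0.212 to 0.679). The control interval lay below the other 3, which overlapped each other. These 165 spots lay mainly in clusters 14, 6 and 16, and the control section had 4 spots in cluster 14 and none in cluster 16. In the remaining clusters the type was held by 11 of 2798 ketamine-treated spots (0.393%, 0.196 to 0.702), 9 of 2843 susceptible spots (0.317%, 0.145 to 0.600), 12 of 3807 resilient spots (0.315%, 0.163 to 0.550) and 4 of 2977 control spots (0.134%, 0.0366 to 0.344). There all 4 intervals overlapped.

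**Figure D2:**
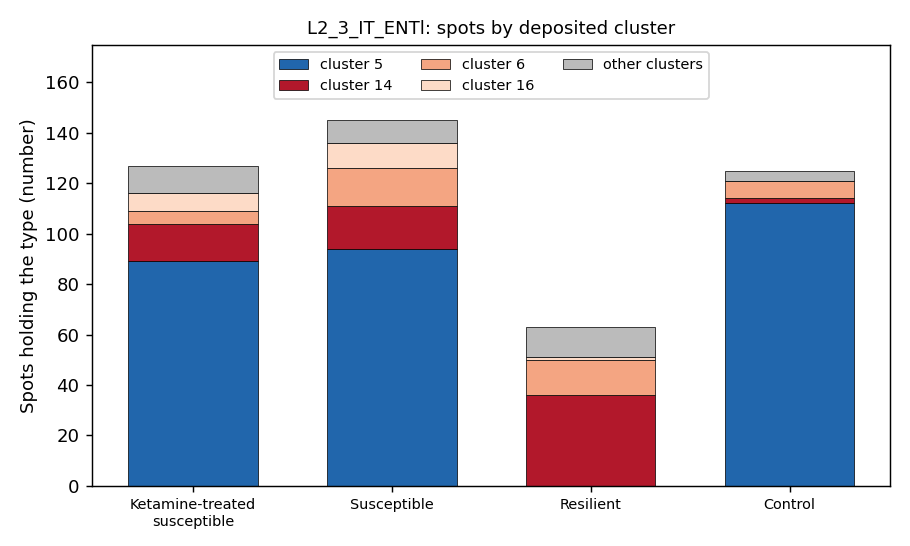
The number of spots holding L2_3_IT_ENTl in each section, divided by the authors' cluster. Cluster 5 holds 89 ketamine-treated, 94 susceptible, 0 resilient and 112 control spots, and cluster 14 holds 36 of the 63 resilient spots.

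Cluster 14 was the main place of the type in the resilient section. There the type was held by 15 of 95 ketamine-treated spots (15.8%, 9.12 to 24.7), 17 of 67 susceptible spots (25.4%, 15.5 to 37.5), 36 of 72 resilient spots and 2 of 4 control spots. The resilient interval lay above those of the ketamine-treated and susceptible sections, whose intervals overlapped. In the same cluster L2_IT_ENTl, the layer 2 type of the lateral entorhinal cortex, was held by 58 ketamine-treated spots (61.1%, 50.5 to 70.9), 22 susceptible spots (32.8%, 21.8 to 45.4) and 30 resilient spots (41.7%, 30.2 to 53.9). The layer 2 type was thus the more frequent of the pair in the ketamine-treated section, while in the susceptible and resilient sections their intervals overlapped.

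The spots given number 14 did not lie together in the authors' t-SNE map, a 2-dimensional layout that places spots with similar profiles near each other. Among the 15 nearest spots of the resilient cluster 14 spots holding the type, 90.4% were resilient spots on average. For the ketamine-treated and susceptible cluster 14 spots holding the type, 14.7% and 15.7% of the nearest spots were resilient, and most came from the ketamine-treated and susceptible sections. The comparison of cluster 14 between sections therefore sets side by side spots that were placed apart in the map.

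Cluster 6, where layer 2/3 types of the cortex were frequent, held the type in 5 of 209 ketamine-treated spots (2.39%, 0.781 to 5.49), 15 of 213 susceptible spots (7.04%, 3.99 to 11.3), 14 of 265 resilient spots (5.28%, 2.92 to 8.71) and 7 of 287 control spots (2.44%, 0.986 to 4.96). All 4 intervals overlapped. The type's share was small in these spots, at a median of 20.9% in the ketamine-treated, 36.7% in the susceptible, 36.6% in the resilient and 29.5% in the control section. Cluster 16 was of the opposite kind. It held the type in 7 of 82 ketamine-treated spots, 10 of 81 susceptible spots and 1 of 10 resilient spots, and had no control spot. In 6 of the 7 ketamine-treated and 7 of the 10 susceptible spots of cluster 16, the type was the whole spot.

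L2_3_IT_ENTl was often the whole of a spot inside cluster 5, and less often elsewhere. It was the only kept type in 174 of its 460 spots (37.8%, 33.4 to 42.4). Among the 57 types held by at least 20 spots of the series, only dentate gyrus granule neurons (DG) had a higher share, at 45.2%, and the median over these types was 4.88%. L2_IT_ENTl followed at 24.6%. The spots of L2_3_IT_ENTl held 1.92 types on average, against a median of 2.86 over the same types. These pooled values differ between sections. By mean number of types its spots were the least mixed but 1 of 37 types in the ketamine-treated section and of 40 in the susceptible section, rank 8 of 45 in the resilient section and the least mixed of 38 in the control section. Its resilient spots held 2.71 types on average and the other resilient spots 2.36. Over the sum of sections, its spots held 2.45 types against 2.31 in other spots outside cluster 5. Inside cluster 5 the values were 1.63 against 1.51. By section they were 1.67 against 1.51 in the ketamine-treated, 1.69 against 1.55 in the susceptible and 1.54 against 1.49 in the control section. Cluster 5 spots thus held few types with or without L2_3_IT_ENTl. Unknown spots, to which no type was given, were left out of these values for other spots.

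The whole-spot calls were unevenly spread over the sections. They made up 37.0% of the type's spots in the ketamine-treated section (28.6 to 46.0), 37.9% in the susceptible section (30.0 to 46.4), 11.1% in the resilient section (4.59 to 21.6) and 52.0% in the control section (42.9 to 61.0). Inside cluster 5 the shares were 43.8% in the ketamine-treated, 43.6% in the susceptible and 57.1% in the control section, with overlapping intervals. Outside it they were 21.1%, 27.5%, 11.1% and 7.69% in the ketamine-treated, susceptible, resilient and control sections. The share was higher inside cluster 5 than outside in each of the 3 sections that had both.

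The share taken of a spot differed in the same way. Inside cluster 5 its median was 57.6% of the spot in the ketamine-treated, 59.0% in the susceptible and 100% in the control section. Outside cluster 5 the medians were 45.3% in the ketamine-treated, 48.9% in the susceptible, 41.5% in the resilient and 32.9% in the control section. In the ketamine-treated section 46 spots had a share of at least 20% and under 50%, 33 a share of at least 50% and below the whole spot, and 47 were whole. These numbers were 50, 40 and 55 in the susceptible section, 40, 14 and 7 in the resilient section and 36, 23 and 65 in the control section. The lowest kept shares of the type, just inside the rule, were 16.1% in the ketamine-treated, 24.8% in the susceptible, 14.0% in the resilient and 18.5% in the control section, and all spots outside the rule stand at 0. The smallest kept share of any type in a section was between 10.1% and 11.2%, so shares smaller than that are not in these tables.

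**Figure D3:**
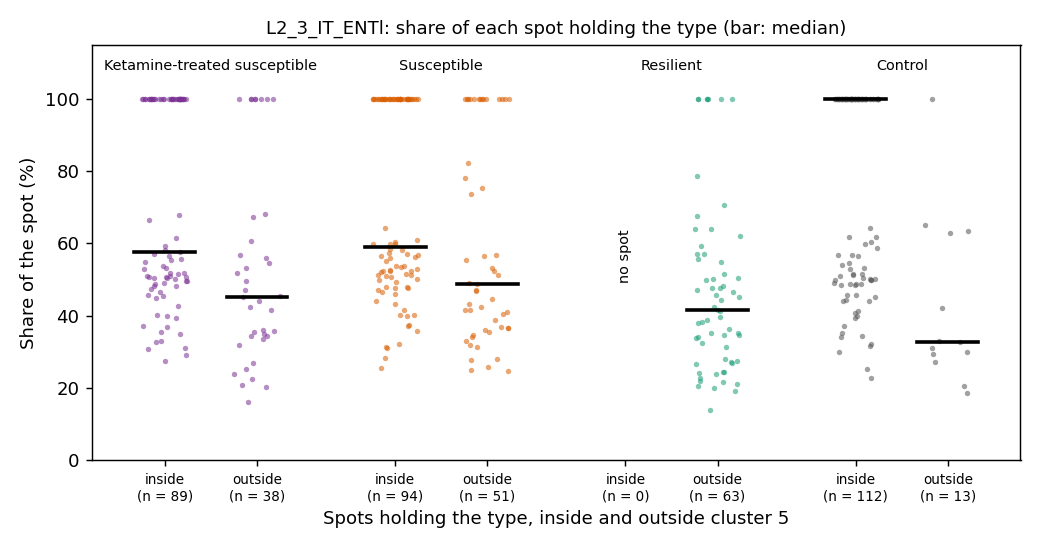
The share of the spot taken by L2_3_IT_ENTl, in percent, for every spot that held it, inside and outside cluster 5 in each section; each point is a spot, spread sideways at random, and black bars are medians. In the control section the median inside cluster 5 is 100%, and outside it is 32.9%.

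The types that shared its spots differed between the 2 settings. Inside cluster 5, its most frequent partner was Astro, the astrocytes, in 51 of 295 spots, followed by L5_PT_RSP_ACA, pyramidal tract neurons of layer 5 named for retrosplenial and cingulate cortex, in 25 spots. Meis2, GABAergic neurons marked by that transcription factor, followed in 21 spots, and L2_3_IT_CTX, the general layer 2/3 cortical neurons, in 17. L2_IT_RSP_ACA was in 10 spots, L6_IT_ENTl and Oligo in 7 each, and CR, L2_IT_RSPv, Micro and Sst_Chodl in 6 each. Outside cluster 5, L2_3_IT_CTX and L5_PT_RSP_ACA each shared 39 of 165 spots, L2_IT_ENTl shared 34, Astro 24, L4_5_IT_TPE_ENT 21, L2_IT_RSP_ACA 18, L5_IT_TPE_ENT 15 and L6_IT_CTX 14. Of the 39 spots shared with L5_PT_RSP_ACA outside cluster 5, 24 were resilient spots, and 21 of those lay in cluster 14. Partners held by at least 5% of the type's spots numbered 4 inside cluster 5 and 8 outside.

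Glutamatergic company differed between the settings. Another glutamatergic type was present in 26.4% of the type's spots inside cluster 5 and in 67.3% of those outside. Inside, these were 25.8% of the type's spots in the ketamine-treated, 35.1% in the susceptible and 19.6% in the control section. Outside, they were 60.5% in the ketamine-treated, 52.9% in the susceptible, 77.8% in the resilient and 92.3% in the control section. The value outside was above that inside in each of the 3 sections that had both. A GABAergic type was present in 10.2% of the spots inside and 6.06% outside, and a non-neuronal type in 21.7% inside and 17.0% outside. These values are over all of the type's spots, of which 48.8% inside and 18.2% outside were whole and can hold no partner. The sizes of the 3 differences therefore depend on the whole spots. The same values were not computed for spots without the type, so whether the contrast is particular to it was not tested.

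Other entorhinal types were rare in cluster 5 as a whole, with or without the type. Of the 9 other types with the entorhinal cortex in their name, at least 1 was present in 12 of the 295 spots inside (4.07%, 2.12 to 7.00) and in 61 of the 165 outside (37.0%, 29.6 to 44.8). Spots without L2_3_IT_ENTl held one of these 9 types in 4.69% of cases inside cluster 5 and in 18.9% outside. The contrast outside was not present within clusters, where the values with and without the type were 35 of 70 spots and 57.1% in cluster 14, 43.9% and 41.1% in cluster 6 and 14.8% and 16.7% in the remaining clusters. L2_IT_ENTl, its nearest neighbour by name, shared none of the 295 spots inside cluster 5, which allows a share of up to 1.02% by the limit of 3 spots, and 34 of the 165 outside. Cluster 5 held L2_IT_ENTl in 0 ketamine-treated, 0 susceptible and 3 control spots. The 704 cluster 5 spots without L2_3_IT_ENTl held L2_IT_ENTl in the same 3 cases.

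**Figure D4:**
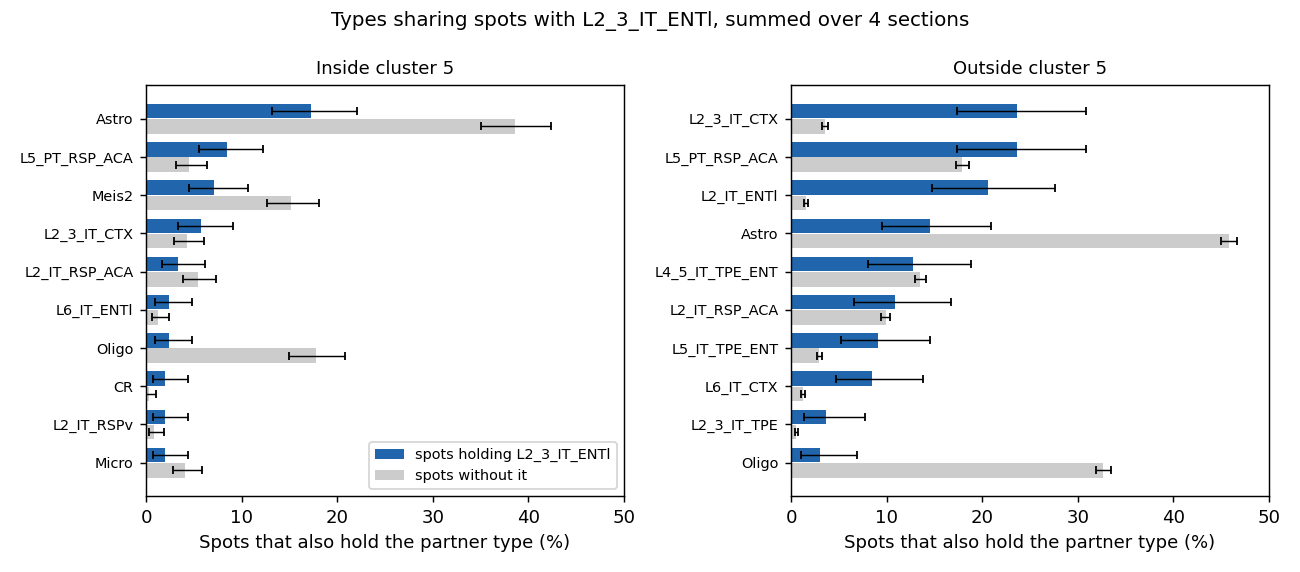
The percent of spots that also held each of the 10 most frequent partner types, for spots holding L2_3_IT_ENTl (blue) and spots without it (grey), inside (left) and outside (right) cluster 5, summed over the 4 sections; bars are exact 95% intervals for counting error. Outside cluster 5, L2_IT_ENTl is in 20.6% of the type's spots and in 1.58% of the others, and Oligo in 3.03% and 32.7%.

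Set against spots of the same setting without the type, L2_3_IT_CTX and L2_IT_ENTl were more frequent partners outside cluster 5, and Astro and Oligo less frequent ones in both settings. Other types named for upper layers went both ways. L2_3_IT_TPE shared 6 of the type's 165 spots outside cluster 5, all in the ketamine-treated or resilient section. Among spots of at least 2 types there, it was in 10% of spots with the type and 0.295% without it in the ketamine-treated section. In the resilient section these values were 5.36% and 1.36%. L2_IT_RSPv was in 1 of the type's 165 spots outside cluster 5 (0.606%) and in 13.3% of the others, and L3_RSP_ACA shared none of its 195 spots. L2_3_IT_CTX was held by 23.6% of the type's spots outside cluster 5 and 3.53% of the other spots there. By section its values were 18.4% against 3.69% in the ketamine-treated, 25.5% against 3.33% in the susceptible, 20.6% against 2.98% in the resilient and 46.2% against 4.24% in the control section. All 4 sections had the same direction. L2_IT_ENTl was at 28.9% against 3.02%, 7.84% against 2.09%, 28.6% against 1.12% and 7.69% against 0.246% in the same order of sections, again in the same direction in all 4. The control value is 1 spot of 13.

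Within single clusters the 2 partners behaved differently. In cluster 14, L2_IT_ENTl was held by 44.3% of the type's spots and 47.6% of the others. It was at 66.7% against 60.0% in the ketamine-treated section and 47.2% against 36.1% in the resilient section, but at 3 of 17 against 19 of 50 spots in the susceptible section, so its direction within the cluster was not the same in all sections. Within cluster 6, L2_3_IT_CTX was held by 32 of the type's 41 spots (78.0%) and 44.6% of the others, and the value was higher beside the type in all 4 sections. L6_IT_CTX, layer 6 intratelencephalic neurons, was held by 8.48% of the type's spots outside cluster 5 and 1.25% of the others, but 11 of its 14 shared spots were resilient spots of cluster 14. L4_5_IT_TPE_ENT, a layer 4/5 type that takes its name from temporal and entorhinal areas, was at 12.7% against 13.5%, and L2_IT_RSP_ACA, a layer 2 retrosplenial and cingulate type, at 10.9% against 9.89%, in the sum of the sections. Within cluster 6, L2_IT_RSP_ACA was lower beside the type in the sum of the sections, at 26.8% against 48.7%. The ketamine-treated section went the other way, at 4 of 5 against 60.7% among its cluster 6 spots of at least 2 types. L5_IT_TPE_ENT was at 9.09% against 2.95%.

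Astrocytes and oligodendrocytes were less frequent beside it than in the other spots. Astro was held by 17.3% of the type's spots inside cluster 5 and 38.6% of the other cluster 5 spots, and by 14.5% against 45.9% outside. Oligo, the myelin-forming oligodendrocytes, was held by 2.37% against 17.8% inside and 3.03% against 32.7% outside. Outside, the clusters differed in how often Oligo was present at all. Among spots of at least 2 types, Oligo was in 0 of 60 spots with the type and 10.5% of those without it in cluster 14, in 0 of 39 and 1.14% in cluster 6, and in 5 of 36 and 40.2% in the remaining clusters. For Astro the same values were 16.7% and 26.3%, 10.3% and 50.8%, and 27.8% and 51.8%. They were lower beside the type in each over the sum of sections. In cluster 14 the sections differed, at 21.4% and 20.5% in the ketamine-treated and 12.5% and 54.5% in the resilient section. Inside cluster 5, all 7 spots shared with Oligo were control spots, and none of 89 ketamine-treated and 94 susceptible spots held Oligo. The other cluster 5 spots held Oligo in 9.80% of ketamine-treated, 1.38% of susceptible and 29.2% of control cases, so the susceptible section had little Oligo in cluster 5 with or without the type. Meis2 was likewise less frequent beside the type, at 7.12% against 15.2% inside cluster 5, with 10.1% against 18.1% in the ketamine-treated, 6.38% against 19.3% in the susceptible and 5.36% against 11.9% in the control section. The shares of a spot sum to 1 and many of the type's spots are whole, and a whole spot can hold no partner. In spots of at least 2 types, the type itself takes 1 place, which leaves fewer places for partners than in the other spots.

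The directions for these 3 types were the same over mixed spots, those of at least 2 types. This setting was chosen after seeing the data, and whole spots do not enter it. It cannot settle whether partners were less frequent, since the type fills 1 place in each of its own mixed spots. Inside cluster 5, 120 of these held only 2 types and 31 held 3 or more. The other mixed spots had at least 2 places for other types, so lower partner values are in part built in. Inside cluster 5, Astro was in 33.8% of the type's mixed spots and 66.5% of the other mixed spots, Oligo in 4.64% and 35.4%, and Meis2 in 13.9% and 32.1%. L5_PT_RSP_ACA was in 16.6% and 8.49%, with 16.0% against 11.3% in the ketamine-treated, 26.4% against 17.3% in the susceptible and 6.25% against 2.04% in the control section. L2_3_IT_CTX was close to even inside cluster 5, at 11.3% against 9.91%. Outside cluster 5, Oligo was in 3.70% of the type's mixed spots and 37.0% of the others. For L5_PT_RSP_ACA the sections did not share a direction there. It was at 13.3% against 23.3% in the ketamine-treated section. In the resilient section it was at 42.9% against 26.2%, and in the control section at 41.7% against 17.3%.

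Cluster 5 spots without the type were often astrocytic or without any call. Of 704 such spots, 272 held Astro, 176 were unknown, 125 held Oligo and 107 held Meis2. Unknown spots, to which no type was given, made up 21.6% of the cluster 5 spots without the type in the ketamine-treated, 22.1% in the susceptible and 28.3% in the control section. Outside cluster 5, 2.39% of the spots without the type were unknown.

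The balance within shared spots also depended on the partner. With Astro the shares were nearly even, at 45.1% ± 9.45 for L2_3_IT_ENTl and 43.7% ± 11.1 for Astro (SD over 75 spots of 4 sections). Beside L5_PT_RSP_ACA the type was the larger in 54 of 64 spots, at 45.4% ± 16.3 and 32.8% ± 9.87 of the spot. Beside L2_3_IT_CTX it was the smaller in 41 of 56 spots. This held mainly outside cluster 5, where L2_3_IT_CTX had the larger share in 31 of 39 spots, with a mean share of 31.7% ± 12.1 for L2_3_IT_ENTl. Inside, L2_3_IT_CTX was the larger in 10 of 17. With L2_IT_ENTl the shares were 34.8% ± 9.67 and 33.5% ± 9.58 over 34 spots. All 7 spots shared with Oligo inside cluster 5 had the larger share in Oligo.

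Of the 66 other types, 32 shared at least 1 spot with L2_3_IT_ENTl and 34 shared none. Of those 34, 29 were held by at least 20 spots in the series. They included L6_CT_CTX, corticothalamic neurons of layer 6, held by 900 spots, NP_SUB, near-projecting neurons of the subiculum, held by 472, Endo, endothelial cells, held by 448, and DG, held by 199. L2_3_IT_ENTl was itself in 3.11% of all spots, so types held by few spots could share none for that reason alone. Several entorhinal types, each held by few spots, were among those that shared none. L2_IT_ENTm was held by 8 ketamine-treated, 6 susceptible, 41 resilient and 8 control spots, L3_IT_ENTl by 3, 1, 6 and 5 and L3_IT_ENTm by 7, 7, 8 and 8 in the same order. L6_CT_ENTm shared 1 spot. L6_IT_ENTl shared 6 of its 23 spots in the susceptible section and 1 of 14 in the ketamine-treated section, all inside cluster 5. L6b_CT_ENT shared 2 of 28 ketamine-treated, 1 of 27 susceptible, 0 of 59 resilient and 2 of 34 control spots.

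Across all spots of a section, no type followed L2_3_IT_ENTl closely. The highest mean Spearman correlation over the 4 sections was with L2_IT_ENTl, at 0.089, with 0.060 in the ketamine-treated, 0.010 in the susceptible, 0.270 in the resilient and 0.015 in the control section. L2_3_IT_CTX came next with a mean of 0.078, followed by L6_IT_CTX at 0.037, L2_3_IT_TPE at 0.033 and L6_IT_ENTl at 0.021. The lowest means were those of Oligo at -0.107 and Astro at -0.097. These are descriptions over the 3443 to 4156 spots of a section, most of which hold neither type of a pair. The points share a section and the sum of 1 within each spot.

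In the t-SNE map the spots of the type fell into separate places according to cluster. All 295 spots holding the type inside cluster 5 had all of their 15 nearest spots in cluster 5, and on average 47.1% of those neighbours also held the type. Cluster 5 spots without the type had 22.7% of neighbours holding it, so spots with the type lay partly together within the cluster. The map and the type shares were both made from the same spots, so this is a description and no independent check. Of the 165 spots outside cluster 5, 2 had any neighbour in cluster 5. The 165 spots had on average 30.3% of neighbours holding the type (median 13.3%), against 0.834% for the other spots outside cluster 5. Within single clusters the gap was smaller. It was 45.9% against 21.1% in cluster 14 and 21.5% against 3.46% in cluster 6. The settings are set by cluster, and spots without the type lay apart in the same way. Cluster 5 spots without it had 97.6% of their neighbours in cluster 5. Outside cluster 5, 73 of 13645 spots without it had any neighbour in cluster 5. The separation in the map is thus one between clusters and not particular to the type. Within cluster 5, the neighbours of the type's control spots were control spots in 80.3% of cases, while the ketamine-treated and susceptible spots lay among each other.

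**Figure D5:**
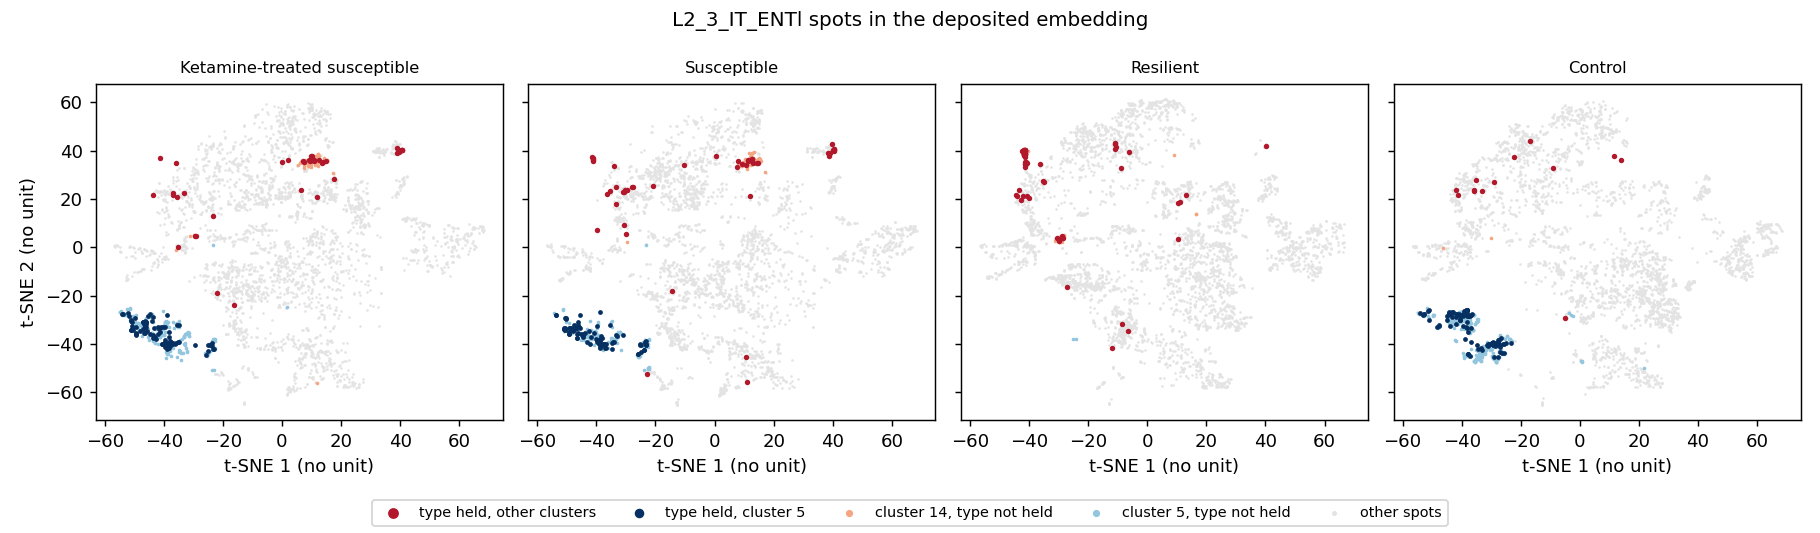
The authors' t-SNE coordinates (no unit) of all spots, 1 panel for each section, with spots holding L2_3_IT_ENTl in dark blue (cluster 5) and red (other clusters) and the spots of clusters 5 and 14 without it in pale blue and orange. The dark blue spots lie in 1 part of the map, with none in the resilient panel, and the red resilient spots of cluster 14 lie to the left of the ketamine-treated and susceptible ones.

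The barcodes, which name places on the slide, were largely shared between sections. The ketamine-treated and susceptible sections shared 3304 barcodes, and cluster 5 took 279 of these among ketamine-treated spots and 226 among susceptible spots, with 132 in common. Of the 124 ketamine-treated and 138 susceptible spots of the type at shared barcodes, 33 were at the same barcode. Between the ketamine-treated and control sections, 2783 barcodes were shared and no barcode held the type, or cluster 5, in both. Whether the same barcode marks the same part of the tissue on different slides is not stated in the labels.

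The ketamine-treated section was set against the susceptible section. Each is 1 mouse, so the drug, the mouse and the section cannot be told apart. The type was held by 3.65% of ketamine-treated and 4.21% of susceptible spots, a ratio of 0.867 (0.687 to 1.10). Between these sections 19.5% of 41 types differed by at least 1.5-fold either way, and L2_3_IT_ENTl was not among them. Inside cluster 5 the ratio was 0.772 (0.611 to 0.976), from 30.4% and 39.3%, and outside it was 0.750 (0.494 to 1.14), from 1.19% and 1.59%. The ratio was below 1 in both settings. Only the interval inside cluster 5, which reflects the number of spots counted alone, left out 1. The size of cluster 5 went the other way, with 8.43% of ketamine-treated and 6.94% of susceptible spots.

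The ketamine-treated section against the control gave a ratio near 1 over all spots, at 1.09 (0.856 to 1.39), where 25% of 40 types differed by at least 1.5-fold. Inside cluster 5 it was 1.26 (0.995 to 1.60) and outside 3.0 (1.60 to 5.62). The susceptible section against the control gave 1.26 (0.995 to 1.59) over all spots, where 36.6% of 41 types differed by at least 1.5-fold. Here the ratio was 1.63 (1.30 to 2.05) inside cluster 5 and 4.0 (2.18 to 7.34) outside. In both comparisons the ratio within each setting was above the ratio over all spots, beside a cluster 5 that covered 12.5% of the control section. These comparisons share the control section, in which the value outside cluster 5 rests on 13 spots and clusters 14 and 16 had 4 and 0 spots in all.

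The resilient section was lower than each of the others over all spots. The ratio of the resilient to the control section was 0.453 (0.336 to 0.611), the lowest but 2 of 45 types, of which 44.4% differed by at least 1.5-fold and 8.89% were lower by that much in the resilient section. Ketamine-treated spots held the type 2.41 times as often as resilient spots (1.79 to 3.25), where 40% of 45 types differed by at least 1.5-fold and 11.1% were higher by that much. Susceptible spots held it 2.78 times as often (2.07 to 3.72), where 43.5% of 46 types differed by at least 1.5-fold and 13% were higher by that much. In both of these comparisons only Meis2 had a higher ratio. Outside cluster 5 the pattern was another one, with ratios of 0.787 (0.528 to 1.17) for the ketamine-treated over the resilient section, 1.05 (0.728 to 1.51) for the susceptible over the resilient section and 3.81 (2.10 to 6.91) for the resilient over the control section. Thus, the resilient section was below the control over all spots and above it outside cluster 5. These 3 comparisons share the resilient section.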

How the data were processed

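Spatial transcriptomics had been run on 4 mouse brain sections, 1 per group. Per the file headers, the tables that the authors deposited list a fraction for each of 67 cell types and for unknown in every spot, together with its cluster. The fractions of a spot sum to 1. The submitters' processing notes name mm10 as the build. How the fractions and clusters were made is not given in the sources used here. A table of t-SNE coordinates over all sections was joined to the spots by barcode, since each of its 4 barcode suffixes had exactly the barcodes of 1 section. The coordinates have no unit and served only to rank the 15 nearest spots.

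From the deposited fractions, spots with a value above 0 were counted per section and cluster, with exact Clopper-Pearson 95% intervals. Ratios of 2 sections carry a log-ratio interval and were computed for every type held by at least 20 spots in either section. A ratio of at least 1.5-fold either way was counted as a difference, with no p-value. A count of 0 was given the limit of 3 spots. Types were named by a rule: those with the entorhinal cortex in their name, Oligo, Astro, Meis2, the 10 most frequent partners inside and outside cluster 5, and the 5 types with the highest mean Spearman correlation. Types tied in 10th place, the types never found beside L2_3_IT_ENTl and the types used for rank were added after their values were seen. The type, the clusters and the lists were chosen with earlier results of these data known. Interval and partner computations were tested on simulated data. Python 3.11.15, pandas 2.3.3, numpy 2.4.6, scipy 1.17.1 and matplotlib 3.10.9 were used.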

Additional observations from a re-analysis of the deposited data

How the results depend on the processing

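Of 73 alternative values, 53 stayed within the counting interval of the reported one, or within 1.5 times for a count. Counting only shares of at least 20%, applying 1 common smallest share of 11.2% to all sections, or leaving out unknown spots moved no share or ratio beyond its interval. Leaving out cluster 5 moved the share of spots to 1.19% in the ketamine-treated, 1.59% in the susceptible and 0.398% in the control section. The ratio outside cluster 5 turned direction for the ketamine-treated over the resilient section (0.787) and the resilient over the control section (3.81). It moved to 3.0 for ketamine-treated over control, 4.0 for susceptible over control and 1.05 for susceptible over resilient. Cluster 5 alone gave 1.63 for susceptible over control. Weighting alike the 13 clusters that had at least 20 spots in every section, which leaves out clusters 5, 14, 16 and 17, turned the ratio to 0.679 for ketamine-treated over resilient and 2.02 for resilient over control. It gave 0.564 for ketamine-treated over susceptible, 1.20 for susceptible over resilient and 2.43 for susceptible over control. These weighted ratios carry no interval and rest on few spots. In the order ketamine-treated, susceptible, resilient and control, cluster 6 had 5, 15, 14 and 7 spots of the type. The rest of the weighted clusters had 11, 9, 12 and 4. By mean share the ratios were 3.37 for ketamine-treated over resilient, 3.99 for susceptible over resilient and 0.287 for resilient over control. By spots led, 94.6% of the control spots lay in cluster 5. With a mean share of at least 5% as the criterion, 1 partner type counted inside cluster 5 and 4 outside. Over spots of at least 2 types, a setting chosen after seeing the data, 5 counted inside and 8 outside. For the alternatives that leave out clusters, fewer spots are the construction; for the others the cause was not tested. With 1 section per group, no section could be left out. No paired analysis was possible because each group has 1 section and nothing in the labels ties the mice to each other. Depth is unknown, and shares below the smallest kept share of a section cannot be seen.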
